A study of Mus musculus with 18 samples.

Results

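The cytosolic ribosomal protein genes encode the proteins of the cell's main translation machinery. They were taken from the platform annotation as every row whose gene symbol starts with Rpl or Rps and a digit, or is Rplp0, Rplp1, Rplp2 or Rpsa, with the S6 kinase genes (symbols starting with Rps6k) and pseudogenes left out. The rule gave 65 genes among 24705 rows with a gene symbol: 40 with a large subunit symbol and 25 with a small subunit symbol. Of these, 55 are core ribosomal proteins, 33 of the large and 22 of the small subunit. The other 10 are related genes, mostly paralogs (Rpl10l, Rpl22l1, Rpl32l, Rpl36al, Rpl39l, Rpl3l, Rpl7l1, Rps23rg1 and Rps27l), and Rps19bp1, which encodes a protein that binds a ribosomal protein and is not one itself. The core lists hold 46 large and 31 small subunit genes, so 13 and 9 of them, among them Rplp2, Rpl11, Rpl13a, Rpl38, Rps6 and Rps27a, have no named row here and were not analysed here.

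Macrophages were raised from mouse femoral marrow in medium with 30 ng/mL M-CSF, and the design asks how they respond to plasma of mice on a Western diet. On day 4 the serum was replaced by 10% plasma, and RNA was taken 48 hours later, on day 6. All plasma donors were C57BL/6J mice after 8 weeks of Western diet: wild-type mice (WT, 4 arrays), ApoE-KO mice, which lack the lipoprotein component apolipoprotein E (ApoE, 5 arrays), ApoE-Stab1-KO mice (AS1, 3 arrays) and ApoE-Stab2-KO mice (AS2, 6 arrays). The last 2 donor strains also lack stabilin-1 or stabilin-2, scavenger receptors of liver sinusoidal endothelium that clear plasma proteins. The labels give the genotype of the plasma donors and none for the cultured cells, so the genotype differs in the plasma and not, as far as stated, in the macrophages. All values below are RMA expression values on the log2 scale, and all differences are differences of group means on that scale.

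Ribosomal proteins are made in near-equal numbers and joined to ribosomal RNA in the nucleolus with the help of many assembly factors, which leave before the subunit translates. The small subunit decodes the messenger RNA, and the large subunit joins the amino acids. In mammals the ribosomal protein mRNAs begin with a C followed by a run of pyrimidines, the 5′ terminal oligopyrimidine or TOP motif, through which growth signals of the mTORC1 kinase set how strongly they are translated, so these genes are known for control of translation as well as of mRNA level.

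The sequences around the annotated transcription start are shown for genes on which the results turn. None of the called genes printed here has a C at the annotated start base inside such a run. A C there followed by at least 4 C or T was present in only 7 of 43 matched core genes (16.3%), so most core genes lack it too. The runs of Rps9, Rpl27a and the other start of Rpl34 span the annotated start. Whether transcription begins at the annotated base was not tested, so these windows do not show that a gene lacks the TOP motif. The windows below are 15 bases on each side of a RefSeq start (GRCm38.p6, mouse), written 5′ to 3′ on the gene's strand, with the 16th base as the annotated start. Capitals mark the longest run of C and T inside the window that opens with C and has at least 5 letters. Rpl15 and Rps27 are shown as cases with a C at the annotated start base inside the run, Rpl4, Rps9, Rpl27a, Rpl34, Rpl22l1, Rpl24 and Rps4x because their values changed.
Rpl15, chr14:18270972-18271001, minus strand: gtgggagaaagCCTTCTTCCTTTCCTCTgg
Rps27, chr3:90213634-90213663, minus strand: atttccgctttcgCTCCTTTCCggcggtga
Rpl4, chr9:64173372-64173401, plus strand: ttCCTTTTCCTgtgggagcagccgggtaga
Rps9, chr7:3704026-3704055, plus strand: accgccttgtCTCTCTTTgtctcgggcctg
Rpl27a, chr7:109519180-109519209, plus strand: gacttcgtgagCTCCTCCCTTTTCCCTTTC
Rpl34, first of 2 starts, chr3:130730384-130730413, minus strand: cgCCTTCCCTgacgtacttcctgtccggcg
Rpl34, the other start, chr3:130730323-130730352, minus strand: CCTTCCTTTTCCTCTTCCggggacggtgct
Rpl22l1, chr3:28805493-28805522, plus strand: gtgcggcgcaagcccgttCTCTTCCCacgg
Rpl24, chr16:55966260-55966289, plus strand: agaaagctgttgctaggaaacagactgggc
Rps4x, chrX:102189377-102189406, minus strand: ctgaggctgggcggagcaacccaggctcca

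Of the 55 core genes, 43 matched the RefSeq table of promoters. A C at the annotated start base followed by at least 4 C or T, read on the gene's strand, was present in 7 of these 43 genes (16.3%), against 3.01% of 27025 genes in the table. The large and small subunit genes held it at 16.7% and 15.8%. It was present in 20.0% of the matched genes for elongation factors and other TOP mRNAs, in 2.0% of those for ribosome assembly factors and in 0.0% of those for mitochondrial ribosomal proteins. Anywhere within the 30 bases, such a run was present in 58.1% of the core genes and in 40.3% of all genes. In the whole table entry, 250 bases before to 50 after a start, and on both strands, CCGGAAG, the core of ETS family sites, was present in 34.9% of the core genes and 9.93% of all genes. The E-box CACGTG was present in 11.6% and 8.09%, and the TATA box letters TATAAA in 11.6% and 15.7%. CACGTG was present in 28.0% of the matched assembly factor genes. Read on the opposite strand, the ETS letters include a short pyrimidine run, so one stretch can count both as this motif and as a pyrimidine run. A match describes the sequence alone.

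Macrophage markers were bright: the 7 measured, among them Adgre1, Csf1r, Cd68 and Itgam, had row means between 10.0 and 12.7, while the median row mean of the table was 4.37. Some neutrophil markers were bright as well. With AS1 plasma Ngp was at 12.23 and Ltf at 11.38, while Ly6g was at 4.30. The share of other cells in the cultures was not tested. Row levels alone do not give it. The macrophage markers differed between most pairs of groups (limma, adjusted p under 0.05). Of the 7, 1 rose and 5 fell in ApoE against WT (median -0.40) and 5 rose and 0 fell in AS1 against ApoE (median 0.33). The counts were 3 and 2 in AS2 against ApoE, 0 and 1 in AS1 against WT, 0 and 4 in AS2 against WT and 0 and 4 in AS2 against AS1. Of all rows with means above 6.72, where these 7 lay, 44.1%, 44%, 39.4%, 20.5%, 43.5% and 50.9% were called in this order. Their part in the results for Rpl4, Rps9 and the other called genes was not tested. The arrays had equal distributions of values, so a change of total RNA per cell cannot be seen, and in bulk samples fewer cells of a type and less RNA per cell cannot be told apart. Many ribosomal protein rows were dim. Row means of the 55 core genes ran from 3.58 to 11.9, with a median of 4.67. Of the 55, 21 lay under the median row of the table and 10 above 6.72, a level passed by 6176 of the 24705 rows: Rplp1, Rpl4, Rps9, Rpl8, Rps21, Rpl29, Rps3, Rpl23, Rpl31 and Rpl15. A row mean is the brightness of that gene's probes and does not rank the genes by abundance. The values hold no detection calls, so it was not tested which dim rows measure their mRNA.

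Few ribosomal protein rows were called as different between plasma groups, and an uncalled row does not show an unchanged mRNA. With ApoE against WT plasma, 3 of 65 passed the threshold (limma, adjusted p under 0.05 over all rows), where 16.9% of all rows were called, 8.54% higher and 8.36% lower: Rpl4 and Rpl24 rose and Rps9 fell. With AS1 against ApoE plasma, 4 of 65 passed, where 16.5% of all rows did, 7.74% higher and 8.8% lower: Rpl22l1 and Rps9 rose and Rpl4 and Rps19bp1 fell. With AS2 against ApoE plasma, 4 of 65 passed, where 15.6% of all rows did, 7.59% higher and 8.02% lower: Rpl8, Rpl27a and Rps9 rose and Rpl4 fell. The 3 comparisons share the ApoE arrays.

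In the other pairs of groups, Rpl23 alone rose with AS1 against WT plasma, where 9.48% of all rows were called, 4.84% higher and 4.64% lower. Rpl4, Rpl8, Rpl24 and Rpl27a rose with AS2 against WT plasma, where 17.8% of all rows were called, 8.65% higher and 9.2% lower. AS2 against AS1 plasma gave the most calls, 8 genes higher and 4 lower of 65, a share of 18.5% where 22.1% of all rows were called, 11.5% higher and 10.6% lower. The members' share lay below that of all rows in each of the 6 comparisons.

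Brightness separates the rows, so the counts were also read within levels. Of the 12 members with row means above 6.72, 2 passed in ApoE against WT, 3 in AS1 against ApoE, 3 in AS2 against ApoE, 1 in AS1 against WT, 2 in AS2 against WT and 3 in AS2 against AS1, where 44.1%, 44%, 39.4%, 20.5%, 43.5% and 50.9% of all rows above 6.72 did. Of the 53 below it, 1, 1, 1, 0, 2 and 9 passed in the same order, where 7.84%, 7.4%, 7.7%, 5.83%, 9.31% and 12.5% of all rows below 6.72 did. The one count of 0, AS1 against WT, came with 6 of 53 at an unadjusted p under 0.05 in limma. In AS2 against AS1 the share in the dimmer rows was 17% (9 of 53), not far from the 12.5% of all such rows. Over all members the calls in that comparison went from 12 to 6 without AS1 replicate 3. The share of the bright rows stayed under its background in each comparison.

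The arrays of the compared groups did not overlap for 3 members in ApoE against WT (14.3% of all rows), 5 in AS1 against ApoE (18.2%), 4 in AS2 against ApoE (10.9%), 8 in AS1 against WT (18.1%), 6 in AS2 against WT (17% of all rows) and 15 in AS2 against AS1 (23.9%). In all, 14 of 65 genes were called in at least 1 comparison, 11 of 40 with a large and 3 of 25 with a small subunit symbol, where 35.1% of all rows were. Among the 12 members above 6.72 it was 5, where 77.7% of all such rows were called.

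**Figure D1:**
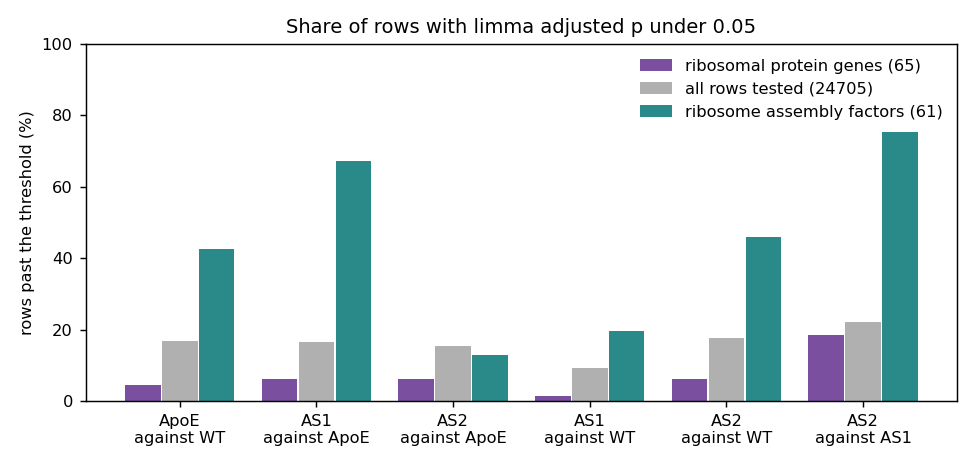
Share of rows past limma's adjusted p of 0.05 (%, vertical axis) in the 6 comparisons, for the 65 ribosomal protein genes, all 24705 rows tested and 61 ribosome assembly factors. The ribosomal protein bars lie between 1.54% and 18.5%, below the bar of all rows in each comparison, and the assembly factor bars reach 75.4%.

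The intervals of the differences show how large a change in the row values the arrays left room for. The 95% interval of limma lay within a 2-fold change in either direction for 55 of 55 core genes in ApoE against WT, AS2 against ApoE and AS2 against WT. It did so for 54 of 55 in AS1 against ApoE and in AS2 against AS1 and for 52 of 55 in AS1 against WT, the comparison with the fewest arrays. Within a 1.5-fold change lay 50, 44, 51, 46, 49 and 45 of 55 in ApoE against WT, AS1 against ApoE, AS2 against ApoE, AS1 against WT, AS2 against WT and AS2 against AS1. The widest bound, 1.47 log2 units, belonged to Rpl34 in AS2 against AS1. An uncalled row is therefore one whose measured difference was mostly under these limits, not one shown to be equal. Of the 55 rows, 21 lay under the median row of the table, and which dim rows measure their mRNA was not tested. For such rows the limits do not bound the change of the mRNA.

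Large and small subunit genes were compared in each array by centring every core gene on the mean of its 4 group means and taking the median over each subunit. The large subunit median was -0.02 ± 0.03 (SD, n = 4) for WT, -0.01 ± 0.05 (n = 5) for ApoE, -0.05 ± 0.04 (n = 3) for AS1 and 0.04 ± 0.02 (n = 6) for AS2. The small subunit median was -0.03 ± 0.03, -0.02 ± 0.05, -0.05 ± 0.01 and 0.02 ± 0.03 in the same order. Both were lowest with AS1 and highest with AS2 plasma, and all 6 AS2 arrays lay above all 3 AS1 arrays in both subunits. The single arrays ran from -0.09 to 0.07 for the large and from -0.07 to 0.07 for the small subunit. No test was made, because the genes were chosen with results known.

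The difference between the subunits, large minus small, was 0.01 ± 0.01 for WT, 0.01 ± 0.05 for ApoE, 0.0002 ± 0.05 for AS1 and 0.02 ± 0.03 for AS2. The WT arrays lay between -0.01 and 0.02, the ApoE arrays between -0.04 and 0.09, the AS1 arrays between -0.03 and 0.06 and the AS2 arrays between -0.01 and 0.06. The 4 groups overlapped, and the largest gap between 2 group means, 0.02, was smaller than the SD between arrays within groups, 0.04. By gene, the median difference over the 33 large and the 22 small subunit genes was -0.03 and -0.01 in ApoE against WT, -0.04 and -0.05 in AS1 against ApoE, and 0.05 and 0.04 in AS2 against ApoE. It was -0.04 and -0.04 in AS1 against WT and 0.06 and 0.02 in AS2 against WT. In AS2 against AS1 it was 0.10 and 0.08, and 24 of 33 and 15 of 22 genes had a positive difference, called or not. The 2 medians had the same sign in each of the 6 comparisons and lay farthest apart in AS2 against WT. There 4 of 33 large (12.1%) and 0 of 22 small subunit genes were called in limma, where 17.8% of all rows were. Both shares lay below that of all rows. An unadjusted p under 0.05 in limma was reached by 3 of 22 small subunit genes.

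**Figure D2:**
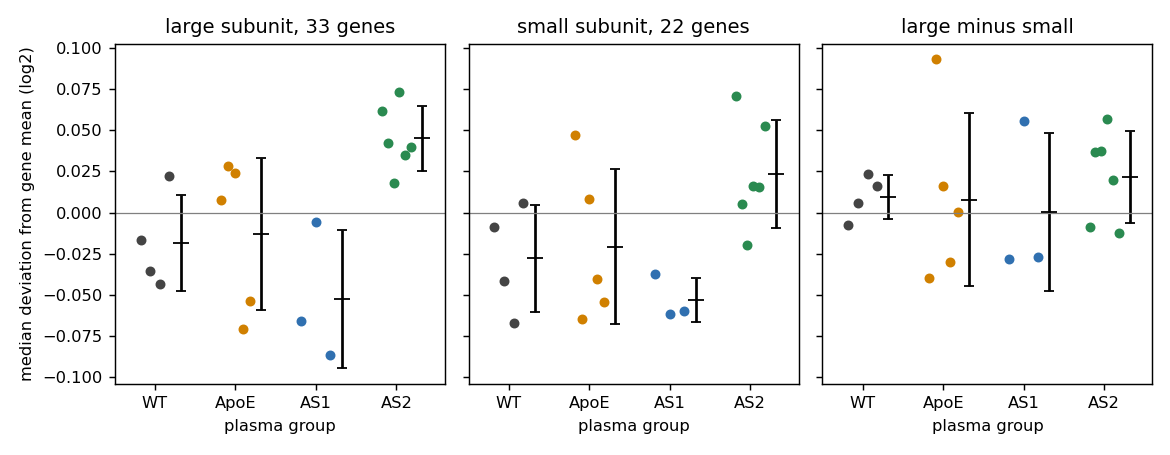
Median deviation of the 33 large and 22 small subunit genes from their gene means (log2, vertical axis) in each array, and the large minus small difference, by plasma group. Points are arrays and bars give the mean ± SD. The AS2 means are highest for both subunits, at 0.04 and 0.02, while single AS2 arrays overlap those of WT and ApoE. The difference between subunits overlaps among all 4 groups.

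Rpl4, a large subunit protein that lines the tunnel through which the new peptide leaves, gave the clearest difference between WT and ApoE plasma. The WT arrays read 11.76, 11.74, 11.77 and 11.68, and the ApoE arrays 12.12, 12.16, 12.02, 12.01 and 11.96. Every ApoE array lay above every WT array. The difference was 0.32 (SE 0.04, 1.25-fold, limma adjusted p = 4.51e-05).

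Rpl4 was lower again with the plasma of the double knockouts. AS1 arrays, at 11.80, 11.85 and 11.86, lay below every ApoE array, and the difference was -0.22 (SE 0.05, limma adjusted p = 0.00360). The AS2 arrays ran from 11.85 through a median of 11.90 to 12.02 and overlapped the ApoE arrays, with a difference of -0.14 (SE 0.04, limma adjusted p = 0.0195). Without ApoE replicate 1 or 2 that last difference was -0.13 or -0.12 and missed the threshold, as it did in a fit of the 2 groups alone (adjusted p up to 0.0615 over the alternatives). AS2 arrays stayed above all WT arrays, by 0.18 (SE 0.04, limma adjusted p = 0.00646).

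Rps9, a small subunit protein of the ribosome's decoding region, had the opposite order. The WT arrays read 10.84, 10.79, 10.91 and 10.85, and the ApoE arrays 10.53, 10.35, 10.61, 10.51 and 10.71. All ApoE arrays lay below all WT arrays, with a difference of -0.31 (SE 0.06, limma adjusted p = 0.00130). With AS1 plasma the arrays read 10.93, 10.81 and 10.72, and with AS2 plasma they ran from 10.71 through 10.77 to 10.84. Both groups lay above all ApoE arrays (the lowest AS2 and highest ApoE arrays by less than the 2 decimals printed), AS1 by 0.28 (SE 0.07, limma adjusted p = 0.00585) and AS2 by 0.24 (SE 0.05, limma adjusted p = 0.00474). Without AS1 replicate 1 the first of these was 0.22 and missed the threshold, and over the alternatives its adjusted p reached 0.0739. The 3 comparisons of Rpl4 and of Rps9 share the ApoE arrays, so they are not independent of each other. Of the sequences printed above, the pyrimidine run of Rpl4 lies before the annotated start, and that of Rps9 spans it.

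Rpl8, a large subunit protein close to the catalytic centre, was high with AS2 plasma. The AS2 arrays ran from 10.32 through 10.43 to 10.45. The WT arrays read 10.22, 10.21, 10.22 and 10.13, the ApoE arrays 10.12, 10.06, 10.18, 10.19 and 10.27, and the AS1 arrays 10.18, 10.32 and 10.11. Every AS2 array lay above every array of the other 3 groups, the lowest AS2 and the highest AS1 array by less than the 2 decimals printed. The difference was 0.25 against ApoE (SE 0.04, limma adjusted p = 0.000379), 0.22 against WT (SE 0.05, limma adjusted p = 0.00210) and 0.21 against AS1 (SE 0.05, limma adjusted p = 0.00501). Without AS1 replicate 3 the last was 0.16 and missed the threshold (adjusted p = 0.0529, the highest over the alternatives). The 3 remaining groups were not separated by the test for Rpl8, with differences of -0.03 for ApoE against WT and 0.04 for AS1 against ApoE.

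Rpl27a is a large subunit protein whose start window holds a pyrimidine run of 19 bases that is cut off by the window's end. It was also highest with AS2 plasma. The AS2 arrays ran from 6.58 through 6.80 to 7.0, the ApoE arrays read 6.52, 6.50, 6.35, 6.40 and 6.27, and the AS1 arrays 6.33, 6.01 and 6.37. No AS2 array overlapped either group. The difference was 0.38 against ApoE (SE 0.10, limma adjusted p = 0.0132) and 0.56 against AS1 (SE 0.12, limma adjusted p = 0.00198). The first was 0.37 without ApoE replicates 2 and 5, an alternative added after the data were seen, and missed the threshold (adjusted p up to 0.0587). The WT arrays, at 6.72, 6.42, 6.10 and 6.60, overlapped the AS2 arrays. The difference of 0.33 passed (SE 0.11, limma adjusted p = 0.0408) but was lost without any 1 of WT replicates 2 and 3, ApoE replicate 4 or AS2 replicates 3 to 6, with values from 0.21 to 0.34.

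Rpl24, a large subunit protein at the interface of the subunits, had a dim row with little spread. The WT arrays read 3.59, 3.49, 3.61 and 3.61, and the AS2 arrays ran from 3.76 through 3.78 to 3.81, above all of them by 0.21 (SE 0.04, limma adjusted p = 0.000296). The ApoE arrays, at 3.75, 3.71, 3.72, 3.63 and 3.67, lay between, 0.12 above WT (SE 0.04, limma adjusted p = 0.0294). That call was lost without any 1 of WT replicates 1 and 2 or ApoE replicates 1, 2 and 3, with values from 0.10 to 0.13. AS1 arrays read 3.61, 3.74 and 3.63, and AS2 arrays lay above them by 0.12 (SE 0.04, limma adjusted p = 0.0312), a call lost without any 1 of AS1 replicates 1 and 3 or AS2 replicates 5 and 6, with values from 0.10 to 0.12. With all values near the bottom of the range, the log2 differences of this row stand on little signal.

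**Figure D3:**
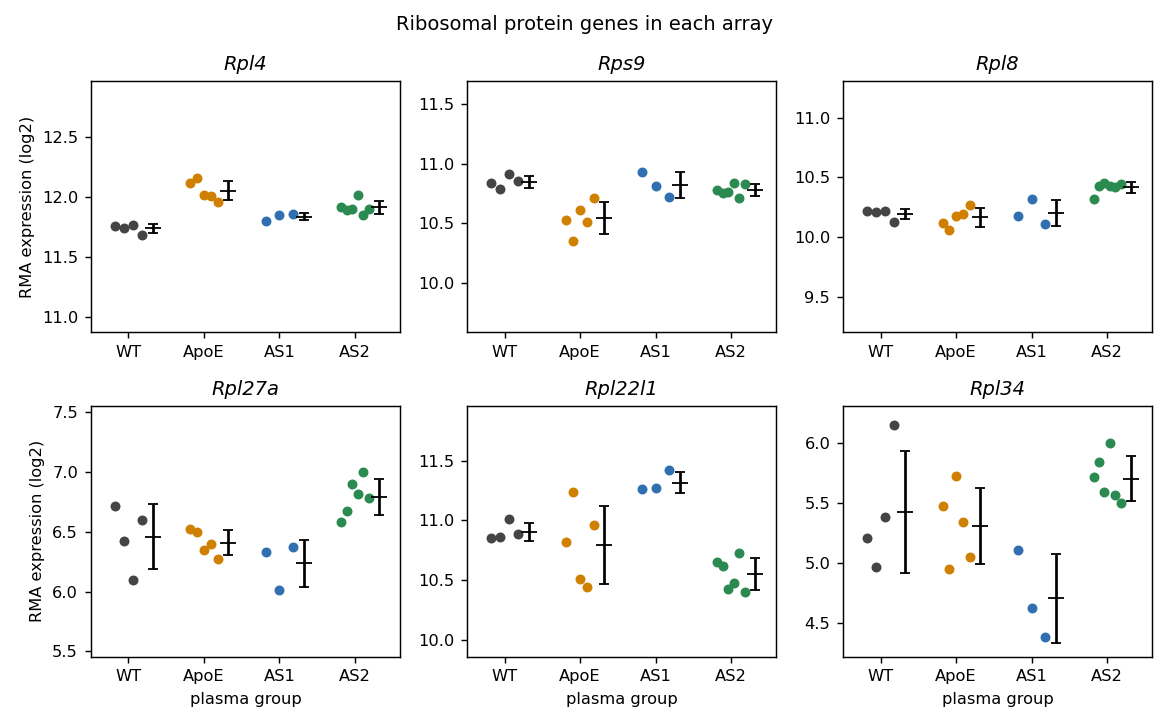
RMA expression (log2, vertical axis, the same span of 2.1 units in each panel) of 6 ribosomal protein genes in every array, by plasma group. Points are arrays and bars give the mean ± SD. Rpl4 is highest and Rps9 lowest with ApoE plasma, Rpl8 and Rpl27a are highest with AS2 plasma, and Rpl22l1 and Rpl34 run in opposite order between AS1 and AS2 plasma.

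Rpl34, a large subunit protein, had the widest separation between AS2 and AS1 plasma. Arrays with AS1 plasma read 5.11, 4.62 and 4.38, and the AS2 arrays ran from 5.50 through 5.66 to 6.00. The groups did not overlap, and the difference was 1.0 (SE 0.22, 2.0-fold, limma adjusted p = 0.00272). The ApoE arrays read 5.48, 4.95, 5.73, 5.34 and 5.05, and the WT arrays 5.21, 4.97, 5.38 and 6.15. Both overlapped the AS1 and AS2 arrays. AS1 against ApoE, at -0.61 (SE 0.23, limma adjusted p = 0.0880), and AS1 against WT, at -0.73 (SE 0.24, limma adjusted p = 0.0711), did not pass. Rpl34 had, with Rps23, the largest spread within groups of the 65 genes, a residual SD of 0.34. Its row mean was 5.37. The brighter row of the pseudogene Rpl34-ps2, left out by the rule, had a row mean of 11.0 and the opposite order. Its AS1 arrays ran from 10.98 to 11.20 and its AS2 arrays from 10.63 to 10.93. Which of these rows follows the Rpl34 mRNA was not tested.

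Rpl23, a large subunit protein that also binds the p53 regulator MDM2, moved the other way. With AS1 plasma the arrays read 8.14, 7.75 and 8.15, and the WT arrays 7.20, 7.78, 7.01 and 7.26. AS1 lay 0.70 above WT (SE 0.17, 1.62-fold, limma adjusted p = 0.0156), with WT replicate 2 above AS1 replicate 2. The call was lost without AS1 replicate 1 (0.64), AS1 replicate 3 (0.63) or WT replicate 3 (0.60). The AS2 arrays, from 7.19 through 7.40 to 7.65, lay below all AS1 arrays, with a difference of -0.61 (SE 0.16, limma adjusted p = 0.00960). It was -0.55 without AS1 replicate 1 and -0.54 without AS1 replicate 3 and missed the threshold in both (adjusted p up to 0.0595; up to 0.0805 for AS1 against WT). The ApoE arrays, at 8.03, 7.62, 7.73, 7.30 and 7.51, overlapped both groups.

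Rps4x, the X-linked form of a small subunit protein, was the only core small subunit gene called in AS2 against AS1. The AS1 arrays read 4.11, 3.66 and 4.06, and the AS2 arrays ran from 4.26 through 4.35 to 5.15. The difference was 0.53 (SE 0.15, limma adjusted p = 0.0166), and it was 0.39 without AS1 replicate 2 and no longer past the threshold (adjusted p = 0.126, the highest over the alternatives). The groups did not overlap, and the highest AS2 array, at 5.15, stood apart from the next, at 4.42.

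The last 4 core genes called in AS2 against AS1 are large subunit genes, named here after their values were seen, and each call was lost without 1 of several arrays. Rpl37 was 0.44 higher (SE 0.13, limma adjusted p = 0.0227) and missed the threshold without AS1 replicate 2 (0.47) or 3 (0.35, adjusted p = 0.152, the highest over the alternatives). Rpl19 was 0.17 higher (SE 0.06, limma adjusted p = 0.0449) and missed it in 11 of the 18 fits without 1 array (WT replicates 2 and 3, ApoE replicates 1, 3 and 4, AS1 replicates 1 and 3, AS2 replicates 2 to 5), with values from 0.12 to 0.17. Rpl27 was lower, by -0.31 (SE 0.10, limma adjusted p = 0.0350), and missed it in 5 of these 18 fits (AS1 replicates 1 and 3, AS2 replicates 2, 4 and 6), from -0.27 to -0.31. Rpl23a, also lower, by -0.42 (SE 0.14, limma adjusted p = 0.0381), missed it in 8 of them (AS1 replicates 2 and 3 and each AS2 replicate), from -0.34 to -0.43. Over all alternatives the adjusted p reached 0.255 for Rpl19, 0.162 for Rpl27 and 0.176 for Rpl23a, while Rpl34, Rpl27a and Rpl22l1 stayed past the threshold under each alternative run in this comparison.

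Rplp1, Rplp0, Rpl5 and Rpsa gave no call. Rplp1, one of the P proteins of the stalk that recruits elongation factors, had WT arrays at 12.08, 11.85, 11.87 and 11.84, ApoE arrays at 11.62, 11.60, 11.92, 12.00 and 12.05, AS1 arrays at 12.09, 11.91 and 11.91 and AS2 arrays from 11.90 through 11.92 to 12.01. Its largest difference was 0.13 (AS1 against ApoE, limma adjusted p = 0.446, interval -0.06 to 0.33). Rplp0, the base of the stalk, was dim, with group means of 4.47 ± 0.42 (SD, n = 4), 4.57 ± 0.15 (n = 5), 4.41 ± 0.17 (n = 3) and 4.60 ± 0.11 (n = 6) for WT, ApoE, AS1 and AS2. Rpl5, which binds the 5S RNA and can hold MDM2 when ribosome assembly fails, was 6.65 ± 0.15, 6.60 ± 0.21, 6.94 ± 0.14 and 6.73 ± 0.34. Rpsa, the small subunit protein also known as the laminin receptor, was 4.59 ± 0.35, 4.58 ± 0.25, 4.26 ± 0.18 and 4.43 ± 0.15. The groups overlapped for all 4 genes.

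Of the related genes, Rpl22l1 had the largest differences. It is a paralog of the large subunit gene Rpl22. AS1 arrays read 11.26, 11.27 and 11.42. The ApoE arrays read 10.82, 11.24, 10.51, 10.44 and 10.96, the WT arrays 10.85, 10.86, 11.01 and 10.89, and the AS2 arrays ran from 10.40 through 10.55 to 10.73. AS1 lay above all other arrays, and AS2 was lowest on average and overlapped the ApoE arrays. The difference was -0.76 for AS2 against AS1 (SE 0.13, 1.70-fold, limma adjusted p = 0.000291) and 0.52 for AS1 against ApoE (SE 0.14, limma adjusted p = 0.0116). Without AS1 replicate 3 the latter was 0.47 and missed the threshold, and its adjusted p reached 0.0984 over the alternatives. AS2 against WT, at -0.35 (SE 0.12, limma adjusted p = 0.0518), missed it although all 6 AS2 arrays lay below all 4 WT arrays.

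Rpl22 itself did not pass in any comparison. Its AS1 arrays read 4.68, 4.64 and 4.68, and its AS2 arrays ran from 4.74 through 4.93 to 5.15. The difference of 0.27 (SE 0.12, limma adjusted p = 0.121) separated the AS1 and AS2 arrays but not beyond the test. The 2 paralogs thus had differences of unlike sign between AS2 and AS1, only 1 of them past the threshold, and the difference between the paralogs was not tested.

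Rps19bp1 fell with AS1 against ApoE plasma. In AS1 arrays it read 5.94, 5.76 and 5.94, and in the ApoE arrays 6.49, 5.93, 6.46, 6.28 and 6.21. Apart from ApoE replicate 2 the groups did not overlap, and the difference was -0.39 (SE 0.11, limma adjusted p = 0.0167), or -0.33 and past the threshold no longer without AS1 replicate 2. AS2 arrays, from 6.02 through 6.18 to 6.37, lay above all AS1 arrays by 0.32 (SE 0.10, limma adjusted p = 0.0355). That call was lost without any 1 AS1 array or any 1 of AS2 replicates 3, 4 and 6, with values from 0.26 to 0.35.

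The other paralog pairs gave no call. Rps27l, a paralog of Rps27 and a known p53 target, was 6.79 ± 0.13 (SD, n = 4), 6.66 ± 0.16 (n = 5), 6.52 ± 0.25 (n = 3) and 6.86 ± 0.22 (n = 6) with WT, ApoE, AS1 and AS2 plasma, and Rps27 was 6.74 ± 0.24, 6.35 ± 0.38, 6.42 ± 0.06 and 6.42 ± 0.10. Rps27 was lower than WT in all 3 AS1 and all 6 AS2 arrays, by -0.32 in each case (limma adjusted p = 0.317 and 0.166). Rpl3 and Rpl3l, Rpl10 and Rpl10l, Rpl7 and Rpl7l1, and Rpl36a and Rpl36al did not pass in any comparison, nor did Rpl39l, whose partner Rpl39 has no named row here. Whether the probes keep near-identical paralogs and pseudogenes apart was not tested.

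Pairs of ribosomal protein rows had a median correlation near 0 across the arrays. Over the 18 arrays the median correlation of 1485 pairs of core genes was 0.04, with single pairs from -0.80 to 0.82, and within groups it was 0.01. For 1830 pairs of ribosome assembly factors it was 0.53, and 0.14 within groups. The pairs share the arrays, their normalization and the groups, and these values are descriptions. Among the 10 core genes with row means above 6.72 the median over 45 pairs was -0.03.

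The factors that build ribosomes were called most often in AS1 against ApoE, where they fell, and in AS2 against AS1, where they rose. All 61 listed assembly and ribosomal RNA synthesis factors had a row. With ApoE against WT plasma, 26 rose and 0 fell, with a median difference of 0.30 beside -0.01 for the core ribosomal proteins. With AS1 against ApoE plasma 0 rose and 41 fell (median -0.48, core ribosomal proteins -0.04), and with AS2 against ApoE plasma 4 rose and 4 fell (median -0.05, core 0.05). AS1 against WT gave 0 and 12, AS2 against WT 28 and 0, and AS2 against AS1 46 and 0 with a median of 0.43, where the core ribosomal proteins had 7 higher and 3 lower and a median of 0.08. The called shares were 42.6%, 67.2%, 13.1%, 19.7%, 45.9% and 75.4% in this order, where 16.9%, 16.5%, 15.6%, 9.48%, 17.8% and 22.1% of all rows were called. Of the 61, 40 had row means above 6.72, and among all such rows the shares were 44.1%, 44%, 39.4%, 20.5%, 43.5% and 50.9%. Among all rows below 6.72 they were 7.84%, 7.4%, 7.7%, 5.83%, 9.31% and 12.5%. The factors were not split by level, so their shares are not directly comparable with either series. In AS1 against ApoE and AS2 against AS1 they lay far above both. The difference between the factors and the ribosomal proteins was not tested, and the list was chosen with earlier results of these data known.

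Named assembly factors show the sizes. Gnl3, nucleostemin, a nucleolar GTPase of the large subunit's assembly, was 6.85 ± 0.09 (SD, n = 4) for WT, 8.17 ± 0.19 (n = 5) for ApoE, 6.71 ± 0.30 (n = 3) for AS1 and 7.56 ± 0.08 (n = 6) for AS2. It rose by 1.31 in ApoE against WT (SE 0.10, limma adjusted p = 8.81e-08) and fell by 1.46 in AS1 against ApoE (SE 0.11, limma adjusted p = 5.73e-07). Ddx21, a nucleolar helicase, was 7.82 ± 0.07, 8.63 ± 0.25, 7.43 ± 0.14 and 8.54 ± 0.08 in the same groups, and rose by 1.10 in AS2 against AS1 (SE 0.10, limma adjusted p = 4.88e-07). Nop56, a core protein of the particles that methylate ribosomal RNA, was 7.94 ± 0.07, 8.36 ± 0.11, 7.98 ± 0.14 and 8.65 ± 0.05, and Ftsj3, a factor in ribosomal RNA processing, was 6.94 ± 0.02, 7.24 ± 0.12, 6.66 ± 0.03 and 7.44 ± 0.06. The levels of both were highest with AS2 plasma.

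The mitochondrial ribosome is a separate machine with its own proteins. Of 76 measured Mrpl and Mrps genes, 6 rose and 4 fell in ApoE against WT, 1 and 17 in AS1 against ApoE, 6 and 1 in AS2 against ApoE, 0 and 10 in AS1 against WT, 11 and 1 in AS2 against WT and 33 and 2 in AS2 against AS1. These are shares of 13.2%, 23.7%, 9.21%, 13.2%, 15.8% and 46.1%, where 16.9%, 16.5%, 15.6%, 9.48%, 17.8% and 22.1% of all rows were called, so 3 of the 6 lay below the share of all rows. Mrps6 was 7.85 ± 0.28 (SD, n = 4), 8.77 ± 0.09 (n = 5), 7.85 ± 0.20 (n = 3) and 9.76 ± 0.08 (n = 6) with WT, ApoE, AS1 and AS2 plasma, and its difference in AS2 against AS1 was 1.91 (SE 0.11, limma adjusted p = 1.73e-09).

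**Figure D4:**
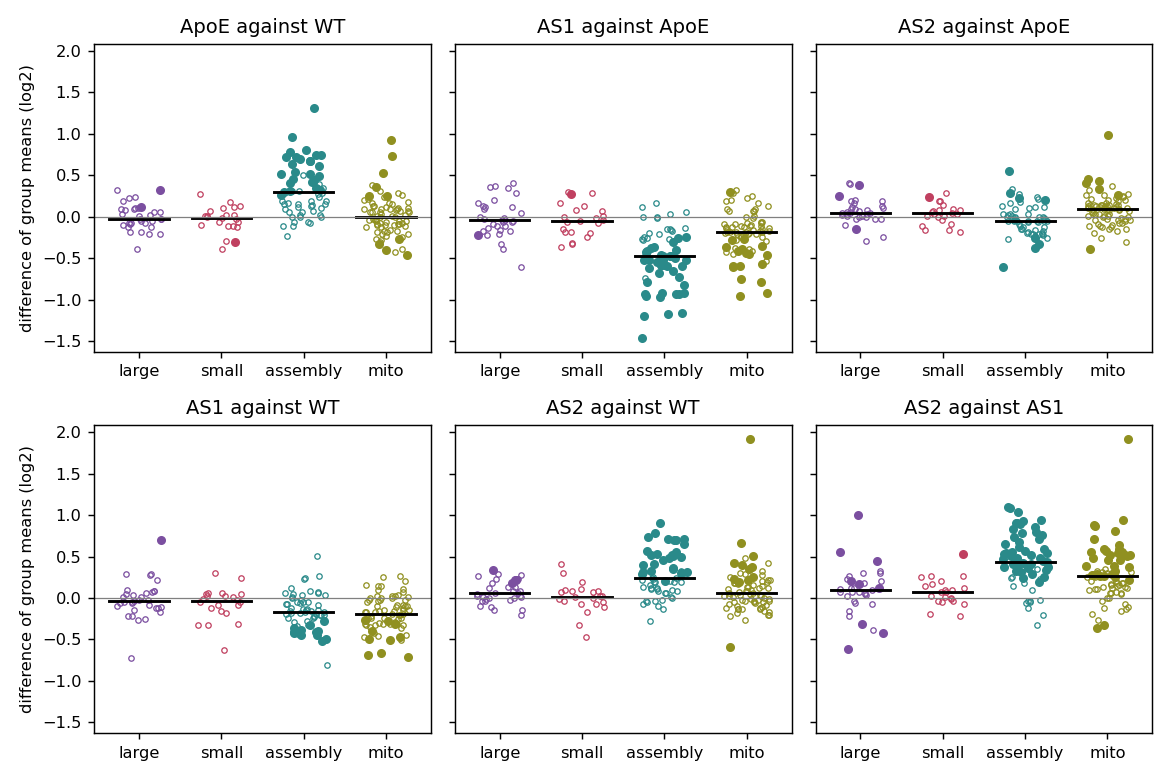
Differences of group means (log2, vertical axis) in the 6 comparisons for core large subunit genes (33), core small subunit genes (22), ribosome assembly factors (61) and mitochondrial ribosomal protein genes (76). Each point is a gene, filled where limma's adjusted p was under 0.05, and black lines are medians. Both ribosomal protein sets stay around 0 in each panel, and the assembly factors shift to medians of -0.48 in AS1 against ApoE and 0.43 in AS2 against AS1.

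Other genes whose mRNAs carry the TOP motif, the elongation factors and their companions, had medians between -0.02 and 0.09. Of 15 measured, 3 rose and 0 fell in ApoE against WT, 1 and 0 in AS1 against ApoE, 4 and 0 in AS2 against ApoE, 3 and 0 in AS1 against WT, 5 and 1 in AS2 against WT and 3 and 3 in AS2 against AS1. The called shares were 20.0%, 6.67%, 26.7%, 20.0%, 40% and 40%, against 16.9%, 16.5%, 15.6%, 9.48%, 17.8% and 22.1% of all rows, and 10 of the 15 had row means above 6.72. Pabpc1, the poly(A)-binding protein, was 12.75 ± 0.08 (SD, n = 4), 12.99 ± 0.08 (n = 5), 12.93 ± 0.10 (n = 3) and 13.07 ± 0.02 (n = 6) with WT, ApoE, AS1 and AS2 plasma. Eif3l, a subunit of an initiation factor, rose by 0.66 in AS2 against AS1 (SE 0.12, limma adjusted p = 0.000398). Eef1g, a subunit of the factor that reloads the elongation factor, fell by 0.37 in that comparison (SE 0.12, limma adjusted p = 0.0348). Fau, which encodes a small subunit protein fused to a ubiquitin-like part and lies outside the symbol rule, was 4.83 ± 0.13, 4.89 ± 0.21, 5.05 ± 0.18 and 4.93 ± 0.18 and was not called.

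Among 20 measured genes of mTORC1 signalling and growth control, 5 rose and 2 fell in ApoE against WT, 3 and 3 in AS1 against ApoE, 2 and 7 in AS2 against ApoE, 1 and 0 in AS1 against WT, 2 and 6 in AS2 against WT and 2 and 9 in AS2 against AS1. The called shares were 35.0%, 30.0%, 45.0%, 5.0%, 40% and 55.0%. Of the 20, 16 had row means above 6.72, where 44.1%, 44%, 39.4%, 20.5%, 43.5% and 50.9% of all such rows were called. Sesn2, which restrains mTORC1 when amino acids are short, was 8.10 ± 0.13 (SD, n = 4), 8.18 ± 0.23 (n = 5), 8.29 ± 0.12 (n = 3) and 6.97 ± 0.12 (n = 6) with WT, ApoE, AS1 and AS2 plasma. Myc, a transcription factor that drives ribosome production, was 6.91 ± 0.15, 7.55 ± 0.21, 7.09 ± 0.0017 and 7.87 ± 0.17. Larp1, the protein that binds the TOP motif and holds back these mRNAs, rose by 0.37 in ApoE against WT (SE 0.04, limma adjusted p = 3.12e-06) and fell by 0.29 in AS1 against ApoE (SE 0.04, limma adjusted p = 0.000132).

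Introns of ribosomal protein genes house small nucleolar RNAs, which guide the modification of ribosomal RNA. By RefSeq positions, 19 of 107 small nucleolar RNA rows lay inside 13 of the member genes. Their rows changed while those of their hosts mostly did not. Host rows were bright for Rpl4, Rps3 and Rpl23, with row means of 11.9, 7.67 and 7.55. Others were dim, such as Rpl10, Rps2, Rpl37 and Rps3a1 at 3.63, 3.81, 4.06 and 4.16. Whether the dim rows follow the host mRNA was not tested, so a flat row does not show an unchanged host. With AS1 against ApoE plasma 13 of 19 fell and 0 rose, with a median difference of -0.85 beside -0.06 for the 13 hosts. With AS2 against ApoE plasma 10 rose and 0 fell (median 0.50, hosts 0.01), and with AS2 against AS1 plasma 14 rose and 0 fell (median 1.41, hosts -0.01). In AS1 against WT 10 fell, in AS2 against WT 11 rose, and in ApoE against WT 0 of 19 passed in limma (2 of 19 at an unadjusted p under 0.05), with a median difference of 0.12. Of all rows tested, 16.9% were called in ApoE against WT, 16.5% in AS1 against ApoE and 15.6% in AS2 against ApoE. The share was 9.48% in AS1 against WT, 17.8% in AS2 against WT and 22.1% in AS2 against AS1.

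Snord16a lies in Rpl4. Its WT arrays ran from 7.04 to 8.72, its ApoE arrays from 7.55 to 8.57, its AS1 arrays from 5.82 to 6.37 and its AS2 arrays from 8.81 to 9.44. AS2 arrays lay above all others and AS1 arrays below all others. The difference was 2.96 in AS2 against AS1 (SE 0.30, limma adjusted p = 1.21e-06), where Rpl4 differed by 0.08 (SE 0.05, limma adjusted p = 0.311). In ApoE against WT, where Rpl4 rose, Snord16a differed by 0.69 (SE 0.29, limma adjusted p = 0.125).

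Snord42a lies in Rpl23a and in AS2 against AS1 differed in the other direction from the row of its host. That row had a mean of 5.39, and its call was lost in 9 of 28 alternatives (limma adjusted p up to 0.176), with the direction kept. It was 7.65 ± 0.47 (SD, n = 3) with AS1 and 10.35 ± 0.29 (n = 6) with AS2 plasma, a difference of 2.70 (SE 0.26), while Rpl23a was lower with AS2 plasma by -0.42. Snord73b, in Rps3a1, rose by 2.23 (SE 0.20) and Snora62, in Rpsa, by 1.74 (SE 0.20) in AS2 against AS1, while Rpsa differed by 0.16 (limma adjusted p = 0.570). Small nucleolar RNAs outside these genes moved as well: of all 107 rows, 70 rose and 2 fell in AS2 against AS1. In AS1 against ApoE 0 rose and 47 fell, and in AS2 against ApoE 34 rose and 1 fell. The counts were 1 and 33 in AS1 against WT, 40 and 4 in AS2 against WT and 6 and 4 in ApoE against WT. The change was thus also seen outside ribosomal protein hosts.

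**Figure D5:**
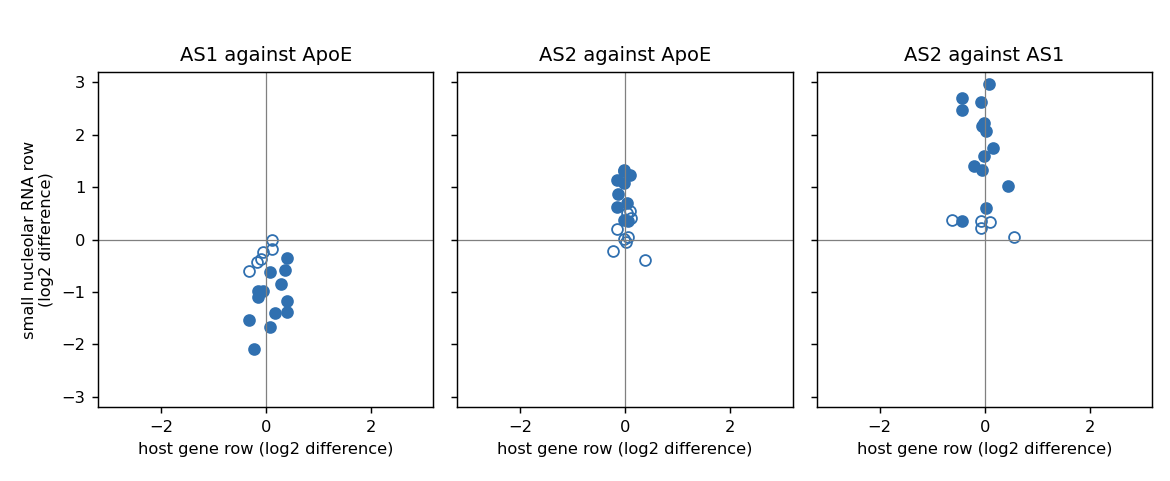
Difference of each of 19 small nucleolar RNA rows (log2, vertical axis) against the difference of the ribosomal protein gene that holds it (log2, horizontal axis), in 3 comparisons. Filled points passed limma's adjusted p of 0.05 for the small nucleolar RNA. Many of the host rows were dim. The points spread along the vertical axis, down to -2.09 in AS1 against ApoE and up to 2.96 in AS2 against AS1, and stay near 0 on the horizontal axis.

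Markers of other cells and of cell state moved with the groups. All 10 neutrophil markers rose in AS1 against ApoE and all 10 fell in AS2 against AS1, and the sum of their log2 values ran from 92.1 to 94.5 in AS1 arrays, 74.0 to 84.5 in ApoE arrays, 74.4 to 77.2 in WT arrays and 69.1 to 75.7 in AS2 arrays. Mpo was 10.26 ± 0.21 (SD, n = 3) with AS1 and 8.41 ± 0.11 (n = 6) with AS2 plasma. All 11 measured proliferation genes rose in ApoE against WT, AS2 against ApoE, AS1 against WT and AS2 against WT, and their sums ran from 61.1 to 65.2 in WT, 81.7 to 85.4 in ApoE, 86.0 to 87.9 in AS1 and 92.9 to 95.1 in AS2 arrays. Of 11 amino acid stress genes, 9 rose in ApoE against WT and 10 fell in each of AS1 against ApoE and AS2 against ApoE. Of 6 osteoclast markers, 3 rose and 0 fell in AS2 against AS1, with mean log2 values over the list from 5.51 to 5.90 in AS2 and 4.69 to 4.83 in AS1 arrays. Of all rows, 16.9% were called in ApoE against WT, 16.5% in AS1 against ApoE and 15.6% in AS2 against ApoE. The share was 9.48% in AS1 against WT, 17.8% in AS2 against WT and 22.1% in AS2 against AS1. Of rows with means above 6.72, 44% were called in AS1 against ApoE and 50.9% in AS2 against AS1. The part of these marker differences in the results for Rpl22l1, Rpl23, Rpl34 and the assembly factors was not tested.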

How the data were processed

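Gene expression was measured on 18 Affymetrix arrays. The authors deposited log2 expression values made with RMA (background correction, equalised distributions and probe summary), per the submitters' processing notes. The sources used here do not name the RMA version or the probe definition. Of 25428 rows, 24705 had 1 gene symbol, and 723 rows outside the annotation are unnamed here. The sorted values of 17 arrays were equal, and those of ApoE replicate 1 differed by at most 0.0019. The labels do not say that replicates were separate cultures or donors, and the p-values therefore reflect the scatter of these arrays alone, some or all of which may be technical. The precision is limited by how many arrays each group has.

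From the deposited values, limma 3.58.1 in R 4.3.3 fitted 4 group means to the 24705 rows (lmFit, then eBayes, with 14 degrees of freedom left for the spread). In 6 pairs of groups, two-sided p-values were adjusted by Benjamini-Hochberg across every row, with 0.05 as the threshold. The scripts were tested on simulated data. Standard errors and 95% intervals are limma's. Group differences over the subunit medians were given without a test.

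The members, lists and alternatives were chosen with earlier results of these data known. The rule for named genes took the members with the smallest p past the threshold in each direction and subunit (up to 4 in each main comparison and up to 2 in each of the others), a fixed set of stalk, 5S, surface and paralog genes, and the 2 members with the largest spread; of companion lists, up to 3 genes per direction and comparison. Start sequences were matched by gene ID to RefSeq (GRCm38.p6). Alternatives kept the unnamed rows, dropped rows with means under the 40th percentile, kept 1 row per symbol, repeated the quantile step, centred arrays on bright rows, let the variance follow the level (trend, robust), weighted arrays, fitted only the 2 groups at hand, blocked on the replicate number or omitted single arrays. For the subunit difference, all members or means replaced core members and medians. Omitting ApoE replicates 2 and 5 together was chosen after seeing the data.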

Additional observations from a re-analysis of the deposited data

Results flagged for a closer look

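Among the arrays of the genes called in any comparison and of the large minus small difference, 45 groups of 4 or more arrays were examined, and in 3 of them 1 array stood apart by more than Dixon's 95% limit, which chance gives in about 1 in 20 groups. Rpl8 in WT replicate 4 was 10.13, below the other WT arrays, of which the nearest was 10.21. Rpl8 in AS2 replicate 1 was 10.32, with the nearest AS2 array at 10.42, and this array was still above all WT and ApoE arrays. Rps4x in AS2 replicate 4 was 5.15, with the nearest AS2 array at 4.42. The causes were not tested.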

How the results depend on the processing

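No called gene changed direction under any alternative run. Counts of called members were within 1.5 times the value in the report except for these. AS1 against ApoE gave 7 with the dim rows left out, 8 with array weights, 1 with the 2 groups alone and 9 without ApoE replicates 2 and 5. AS1 against WT gave 2, 2, 2 and 3 under the same settings. ApoE against WT gave 5 without ApoE replicates 2 and 5. Leaving out 1 array gave 2 to 4 calls in ApoE against WT, 3 to 7 in AS1 against ApoE, 3 to 5 in AS2 against ApoE, 0 to 3 in AS1 against WT, 3 to 6 in AS2 against WT and 6 to 13 in AS2 against AS1. Past 1.5 times were 7 without ApoE replicate 2 in AS1 against ApoE, 0 without WT replicate 3 or AS1 replicate 3 and 3 without WT replicate 2 or ApoE replicate 2 in AS1 against WT (2 without ApoE replicate 1 or AS1 replicate 2), and 6 without AS1 replicate 3 and 7 without AS1 replicate 1 in AS2 against AS1.

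The large minus small difference between groups, at most 0.02 in size in the report, was -0.026 for AS2 against AS1 over all 65 members, 0.055 for AS1 against WT and 0.065 for AS2 against WT with means in place of medians, and 0.053 for AS2 against ApoE without ApoE replicates 2 and 5. With 1 array left out it ran from -0.0173 to 0.0208 in ApoE against WT, -0.0263 to 0.0108 in AS1 against ApoE, -0.000212 to 0.0453 in AS2 against ApoE, -0.0324 to 0.00936 in AS1 against WT, 0.00253 to 0.0280 in AS2 against WT and 0.00272 to 0.0506 in AS2 against AS1. The causes were not tested.

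With the replicate number as a block, AS2 against ApoE gave 2 calls and AS2 against AS1 gave 7. The numbers are not shown to pair the arrays: over 22 pairs of arrays with the same number, the correlation of deviations from the group means ran from -0.21 to 0.13 and was over 0.1 in 4.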

Other observations

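The 44 rows left out as pseudogenes were brighter than many of the genes: 19 had row means above 6.72, and Rpl9-ps6 had a row mean of 12.0, where the row of Rpl9 had 3.6. Whether these rows measure the parent mRNA was not tested, and levels of different rows are not comparable. Of the 44 rows, 4 were called higher and 0 lower in ApoE against WT, 0 and 5 in AS1 against ApoE, 0 and 2 in AS2 against ApoE, 1 and 3 in AS1 against WT, 3 and 0 in AS2 against WT and 6 and 2 in AS2 against AS1. These are shares of 9.09%, 11.4%, 4.55%, 9.09%, 6.82% and 18.2%, where 16.9%, 16.5%, 15.6%, 9.48%, 17.8% and 22.1% of all rows were called. Rpl30-ps8 fell by 0.96 in AS1 against ApoE (limma adjusted p = 0.000635) and rose by 0.88 in AS2 against AS1 (limma adjusted p = 0.000647).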
